A study of Arabidopsis thaliana with 9 samples.

Results

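MIR165 and MIR166 are the 9 Arabidopsis thaliana genes for the near-identical microRNAs miR165 and miR166: MIR165a (AT1G01183), MIR165b (AT4G00885), MIR166a (AT2G46685), MIR166b (AT3G61897), MIR166c (AT5G08712), MIR166d (AT5G08717), MIR166e (AT5G41905), MIR166f (AT5G43603) and MIR166g (AT5G63715). They were chosen by locus, with the FIE peaks around them already known, and make up 9 of the 326 MIR genes in the RefSeq gene table. For each gene, every deposited FIE peak overlapping the gene body plus 3 kb on both sides was collected. The annotated bodies are short, from 105 to 182 bp, so a window spans 6105 to 6182 bp.

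FIE is a WD40-repeat subunit of Polycomb repressive complex 2, which places the repressive mark H3K27me3 on histone H3. Its chromatin occupancy was measured by ChIP-seq with an anti-FIE antibody in plants of the Ws strain, 30 hr old, grown on MS plates in long days. The groups were the double knockdown, carrying the transgenes pRNAi-BPC and pRNAi-ZnF, and the wild type, carrying no transgene, with 3 biological replicates each. A further 3 libraries were input chromatin of the wild type. BPC proteins bind GAGA motifs in plant DNA. Neither the genes that the transgenes target nor the promoters driving them are named in the labels, and ZnF is read here as zinc finger. Whole plants were used, so occupancy in fewer cells and lower occupancy per cell cannot be told apart.

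The microRNAs miR165 and miR166 pair with the mRNAs of the class III homeodomain-leucine zipper (HD-ZIP III) transcription factors and direct their cleavage. In leaf primordia they accumulate on the lower (abaxial) side and restrict HD-ZIP III transcripts to the upper (adaxial) side. In roots they act as mobile signals that leave the endodermis and pattern the xylem. Within the plant, HD-ZIP III genes also control the shoot meristem and the vasculature.

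The files gave 1 peak list per anti-FIE group, with 4882 peaks in the double knockdown and 6540 in the wild type. Neither list gave values per replicate, so replicates could not be compared, and every value below is the authors' value for a whole list, with no replicate error. Fold is the authors' fold enrichment at the peak summit. It is compared within a list only, except at some MIR genes with peaks in both lists. The pileup, the number of fragments over the summit, was recovered from the deposited fold and p-value, and its 95% exact Poisson interval covers counting error only. Both lists hold only peaks with a −log10 q above 10, so a missing peak means that no peak passed this limit. The peak numbers ran to 40491 in the knockdown and 35125 in the wild type, so numbered calls before this limit were in the opposite order to the listed peaks. The knockdown list had 0.471 times the depth of the wild-type list by the recovered backgrounds.

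No FIE peak was listed in the double knockdown within 3 kb of any of the 9 genes, against peaks at 5 of the 9 in the wild type. The 5 were MIR165a, MIR165b, MIR166a, MIR166b and MIR166e, and at each of them a wild-type peak covered 100% of the gene body. MIR166c, MIR166d, MIR166f and MIR166g had no peak in either list. Thus both MIR165 genes and 3 of the 7 MIR166 genes carried FIE in the wild type. Among all 326 MIR genes, the share with a peak in the same window was 15.3% in the knockdown and 30.1% in the wild type, and 23.3% were marked in the wild type alone. With the gene body alone the shares were 3.99% in the knockdown and 10.4% in the wild type, against 0 and 5 of the 9 genes. These counts describe genes that were chosen with the peaks in view, so no test was made of them.

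**Figure D1:**
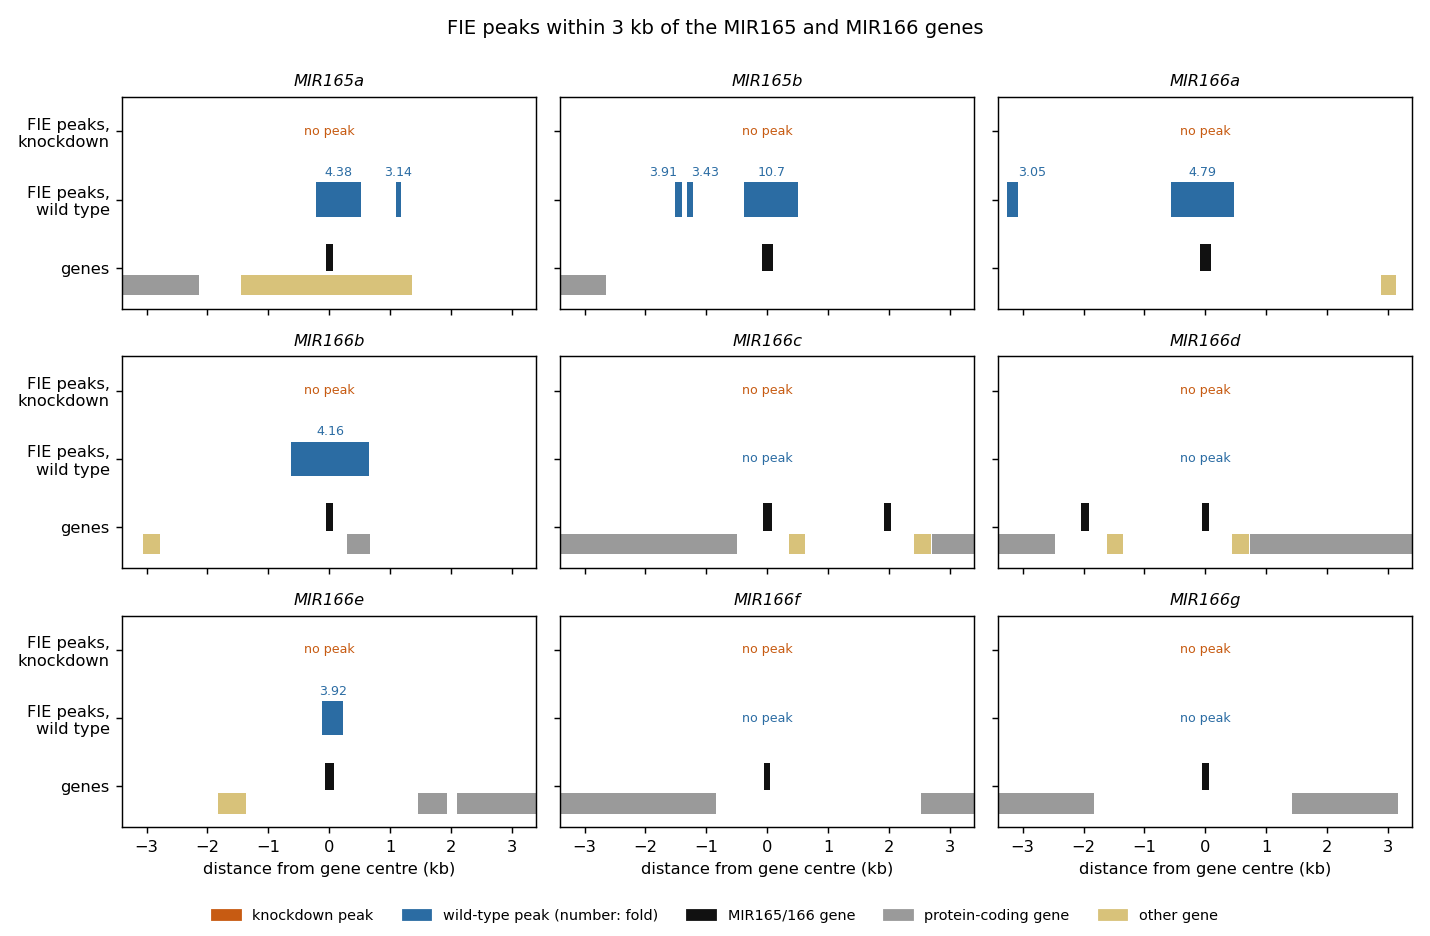
FIE peaks around each of the 9 genes, with the distance from the gene centre in kb on the x axis; the rows show double-knockdown peaks, wild-type peaks with their fold enrichment, and annotated genes. The knockdown row is empty in all 9 maps, and a wild-type peak lies over the gene in 5 of them.

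MIR165b had the strongest FIE peak of the group. In the double knockdown no peak was listed, and the nearest one lay 9361 bp away. In the wild type the peak spanned chr4:369544-370428 (885 bp) with a fold of 10.7 (95% Poisson interval 9.27 to 12.3), a pileup of 195 fragments and a −log10 q of 127. It ranked 99 of 6540 wild-type peaks by fold. Its summit lay 136 bp outside the gene, toward higher coordinates. The wild type held another pair of short peaks on the lower-coordinate side of MIR165b. One was 108 bp long at 1315 bp from the gene, with a fold of 3.91 (3.08 to 4.90), and the other was 101 bp long at 1134 bp from it, with a fold of 3.43 (2.63 to 4.38). Peaks of this locus thus differed in fold by more than counting error, with the one on the gene above both flanking ones.

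At MIR166a no knockdown peak was listed, the nearest lying 9880 bp away. The wild type had a peak of 1034 bp over the gene (chr2:19175632-19176665) with a fold of 4.79 (3.98 to 5.71) and a pileup of 121. Its summit lay 137 bp from the gene on the lower-coordinate side. A weak wild-type peak (fold 3.05, 2.36 to 3.87) reached only 8 bp into the window, at 2993 bp from the gene. This was the peak just inside the 3 kb limit. The closest peak just outside it, in either list, was a knockdown peak 4789 bp from MIR166f (chr5:17511386-17511512, fold 4.02).

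MIR166b, which is active in the root endodermis, had no knockdown peak in its window, the nearest lying 14821 bp away. Its wild-type peak was the longest of the group, at 1289 bp (chr3:22921633-22922921), with a fold of 4.16 (3.41 to 5.03) and a pileup of 105. The summit lay 4 bp from the gene, and the peak extended 573 bp to lower and 596 bp to higher coordinates. It also overlapped most of the small protein-coding gene AT3G61898. The fold intervals of MIR166b and MIR166a overlapped, and whether the 2 folds differ beyond counting error was not tested.

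MIR165a, which with MIR166b is activated by SHR and SCR in the root endodermis, had no knockdown peak within 97216 bp. In the wild type a peak of 750 bp (chr1:78760-79509) covered the gene with a fold of 4.38 (3.62 to 5.25) and a pileup of 114. The summit lay 98 bp from the gene on the higher-coordinate side. A second wild-type peak of 83 bp at 1037 bp from the gene had a fold of 3.14 (2.42 to 4.02). Both peaks fell within AT1G08765, a non-coding RNA gene that spans MIR165a.

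MIR166e had the weakest and shortest of the peaks lying on a gene. The nearest knockdown peak was 80998 bp away. The wild-type peak spanned 344 bp (chr5:16775480-16775823) with a fold of 3.92 (3.08 to 4.91), a pileup of 73 and a −log10 q of 20.1. It was the one peak of the 5 whose summit lay inside the annotated gene.

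By wild-type fold the order was MIR165b, MIR166a, MIR165a, MIR166b and MIR166e. The interval of MIR165b lay above those of the other 4, whereas those 4 overlapped each other. All 5 stood in the upper part of the wild-type list, from 75.5% of its peaks with a lower fold at MIR166e to 98.5% at MIR165b. The median fold of the list was 3.29. The background under the summit also varied: it was 25.3 at MIR165a, 24.5 at MIR166a and 24.5 at MIR166b, but 17.3 at MIR165b and 17.9 at MIR166e, with a list median of 18.9. By pileup alone MIR165b (95% interval 169 to 224) again lay above MIR166a, whose upper bound was 145. The pileup of MIR166e (57.2 to 91.8) lay below that of MIR165a (94.0 to 137) and overlapped that of MIR166b (85.9 to 127). MIR166e thus stood further below MIR166a, MIR165a and MIR166b in pileup than in fold. The part of the background in this order was not tested.

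**Figure D2:**
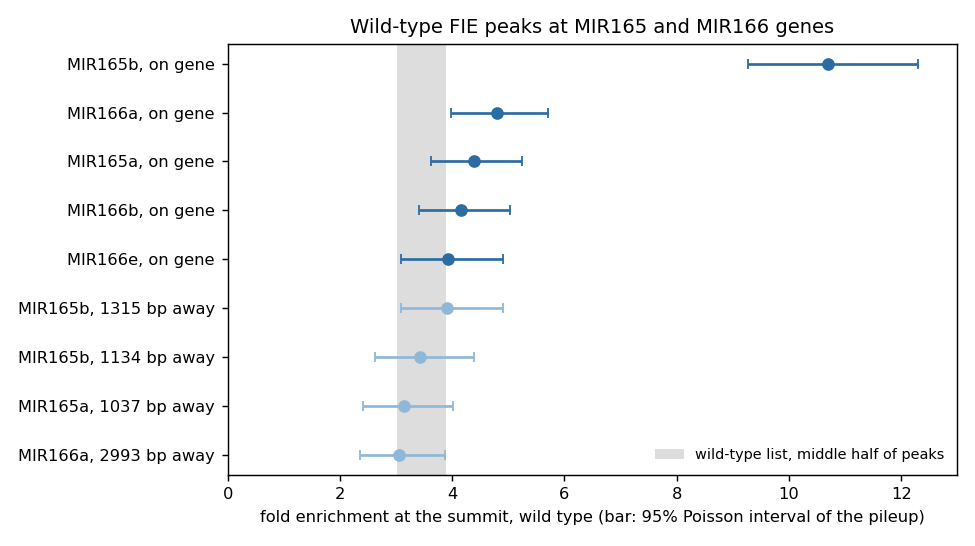
Fold enrichment at the summit of the 9 wild-type peaks within 3 kb of MIR165 and MIR166 genes, on the x axis, with 95% Poisson intervals of the pileup as bars; dark points lie on the gene, light points beside it, and the grey band is the interquartile range of all wild-type peaks (3.02 to 3.89). MIR165b stands at 10.7, above the 4 other peaks on genes at 3.92 to 4.79.

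Of the 10 nearest protein-coding neighbours of the 5 marked genes, 0 had a knockdown peak and 1, AT3G61898, had one in the wild type, counting peaks over the gene body. Over all protein-coding genes the shares on the body were 4.39% in the knockdown and 9.94% in the wild type, so the neighbours' counts were near this background. The nearest coding neighbour on the lower-coordinate side was HB-7 for MIR166a and HB-12 for MIR166b, a paralogous pair of HD-ZIP class I genes. They lay 9141 and 6813 bp away and had no peak on their bodies in either list. The nearest coding neighbours of the MIR165b gene lay 2557 and 3948 bp away. Thus the wild-type peaks at MIR165a, MIR165b, MIR166a and MIR166e overlapped no protein-coding gene.

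The 4 genes without a listed peak all lie on chromosome 5. MIR166c and MIR166d are neighbours, 1849 bp apart, so their windows overlap and they do not count as separate observations. Their nearest peaks were a knockdown peak 11028 bp from MIR166d and a wild-type peak 8168 bp from MIR166c. For MIR166f the nearest wild-type peak was 11547 bp away, and for MIR166g the nearest peaks were 32872 bp away in the knockdown and 19549 bp away in the wild type. MIR166e, on the same chromosome, was marked in the wild type, and occupancy below the limit of the lists at the other 4 was not detectable.

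The lower depth of the knockdown list limits what its missing peaks can show. At that depth, with occupancy and ChIP enrichment both equal, the MIR165b peak would be expected to have a pileup of 91.9 (95% Poisson interval 74.1 to 113). A pileup of 36 would have sufficed for listing. A knockdown pileup of 39.2% of this expected value would thus have been listed. MIR166a would be expected at 57.0 (43.2 to 73.9) with 43 needed, so that its lower bound lay at the limit. These intervals leave out the counting error of the wild-type pileup itself, so it was not established that MIR166a clears the limit. For MIR165a the expected pileup was 53.7 (40.3 to 70.2) with 44 needed, and for MIR166b 49.5 (36.7 to 65.3) with 43 needed. Both were expected to pass, but their intervals included the limit. MIR166e, at 34.4 (23.9 to 48.0) with 36 needed, was not expected to pass, and a lower occupancy could not be detected at this gene. None of the 4 flanking peaks was expected to pass either. In all, 4 of the 9 genes had a wild-type peak expected to pass, against 12.9% of all MIR genes. These 4 also lacked a knockdown peak, and 9.2% of all MIR genes met both conditions. This calculation uses the recovered background to measure depth, and takes fragment length and ChIP enrichment as equal between the lists. Equal enrichment was not tested. At MIR genes with peaks in both lists, the highest folds in the window differed. They were 12.7 in the knockdown and 7.39 in the wild type at MIR854e, and 9.72 and 5.12 at MIR5642b. The wild-type fold was the higher only at MIR169d and MIR169e (6.86 and 11.1 each) and at MIR5015 (4.02 and 9.13).

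**Figure D3:**
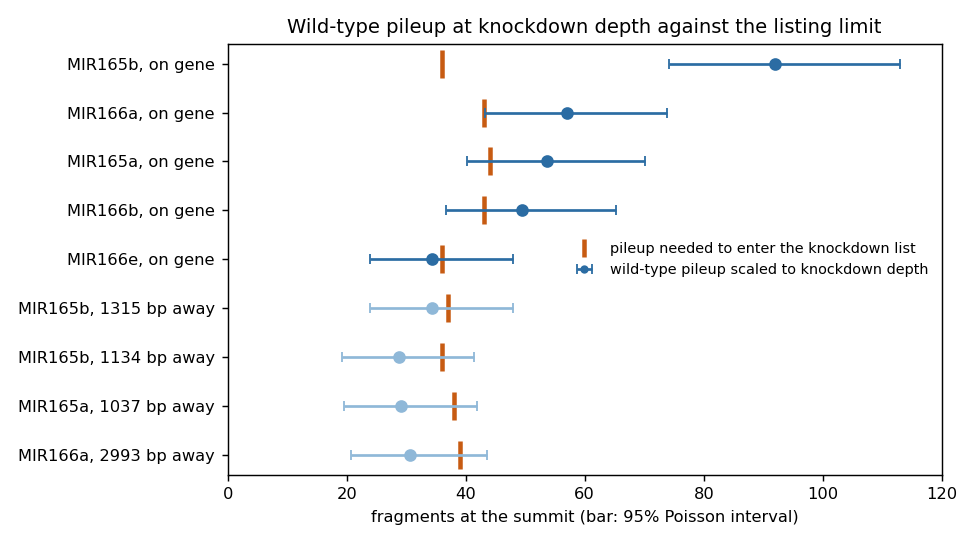
Wild-type summit pileups scaled to the knockdown depth (points, with 95% Poisson intervals) and the pileup needed to enter the knockdown list (vertical ticks), in fragments on the x axis, for the 9 wild-type peaks. MIR165b lies far above its limit of 36, MIR166a, MIR165a and MIR166b lie nearer to limits of 43 to 44, and MIR166e and the flanking peaks lie below theirs.

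Lacking a knockdown peak was common among MIR genes marked in the wild type. Of the 98 MIR genes with a wild-type peak in the window, 76 had no knockdown peak (77.6%). Among MIR genes with a wild-type peak expected to pass, 71.4% had none. By highest wild-type fold in the window MIR165b ranked 4 among the 326 MIR genes, and MIR166a, MIR165a, MIR166b and MIR166e ranked 30, 34, 39 and 42. The other MIR genes with the highest wild-type folds were MIR172a (11.8), MIR169d and MIR169e (11.1 each, from the same peak), MIR172d (10.6) and MIR160a (9.40). MIR169d and MIR169e had 153 bp of knockdown peak in their windows, while the other 3 had none. In the MIR172 family, which targets AP2-type floral repressors, 0 of 5 genes had a knockdown peak and 5 had a wild-type peak. In the auxin-related families the counts were 0 and 1 of 3 for MIR160 and 0 and 2 of 4 for MIR167, with the knockdown first in each case. Over all MIR genes these shares were 15.3% in the knockdown and 30.1% in the wild type. The wild-type peaks of MIR172c, MIR172e and MIR167b were not expected to pass, so lower occupancy could not be detected at these genes. The genes closest to MIR166b in covered length (0 bp in the knockdown and 1289 bp in the wild type) were MIR5026 (0 and 1200 bp), MIR394b (0 and 1156 bp) and MIR399c (0 and 1102 bp), a likeness over 2 lists only.

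**Figure D4:**
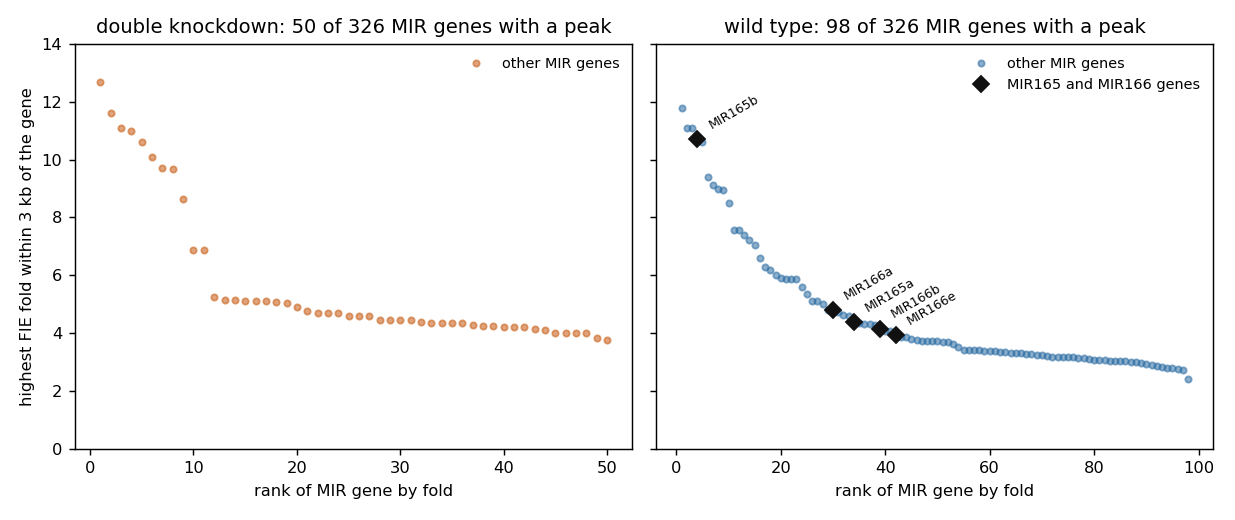
MIR genes with a FIE peak within 3 kb, ranked on the x axis by their highest fold on the y axis, in the double knockdown (left) and the wild type (right); diamonds mark MIR165 and MIR166 genes. None of the 50 genes marked in the knockdown is a MIR165 or MIR166 gene, and the 5 among the 98 marked in the wild type rank 4 to 42.

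Of the HD-ZIP III genes, the targets of miR165 and miR166, 0 of 5 carried a FIE peak in the same window in the knockdown and 2 of 5 in the wild type, where all protein-coding genes stood at 13.1% in the knockdown and 26.6% in the wild type. ATHB8, a gene of vascular development, had a wild-type peak on its body with a fold of 3.27. PHB, which specifies the adaxial side, had one in its flank alone, with a fold of 3.22. REV, PHV and CNA, which act in organ polarity and the meristem, had none in either list. Neither marked target reached the pileup that the knockdown list would need, so lower occupancy could not be detected at them. LITTLE ZIPPER genes encode small proteins that bind HD-ZIP III factors and inhibit them. Of these genes, 0 of 4 had a knockdown peak and 2 had a wild-type peak. ZPR3 had it on its body, with a fold of 4.89, and ZPR2 in its flank alone, with a fold of 4.33. Both were expected to pass.

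The KANADI and YABBY genes, which specify the abaxial side of leaves and other lateral organs, were marked in full in the wild type. All 4 KANADI genes, which antagonise HD-ZIP III function, had a wild-type peak expected to pass and 0 had a knockdown peak, with wild-type folds from 5.39 at KAN4 to 8.13 at KAN1. All 6 YABBY genes did likewise, from 4.55 at INO to 17.0 at FIL. The share of protein-coding genes meeting both conditions was 5.6%. Among the adaxial factors AS1 and AS2 and the abaxial auxin response factors ETT and ARF4, AS2 (4.06) and AS1 (2.79) had wild-type peaks in the window, none of the 4 had a knockdown peak, and none was expected to pass. The root activators SHR (3.58) and SCR (3.63) had wild-type peaks and no knockdown peak, and neither was expected to pass. Of 7 genes for the making and action of microRNAs, AGO1, the main slicer, had a knockdown peak of fold 3.24 in its flank and no wild-type peak. That fold was below the median of the knockdown list, 4.35. HST, the exportin-type factor, had the one wild-type peak, at 3.36 in its flank. DCL1, HYL1, SE, HEN1 and AGO10, the Argonaute that sequesters miR165 and miR166, had none in either list. The window shares over all protein-coding genes were 13.1% in the knockdown and 26.6% in the wild type.

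**Figure D5:**
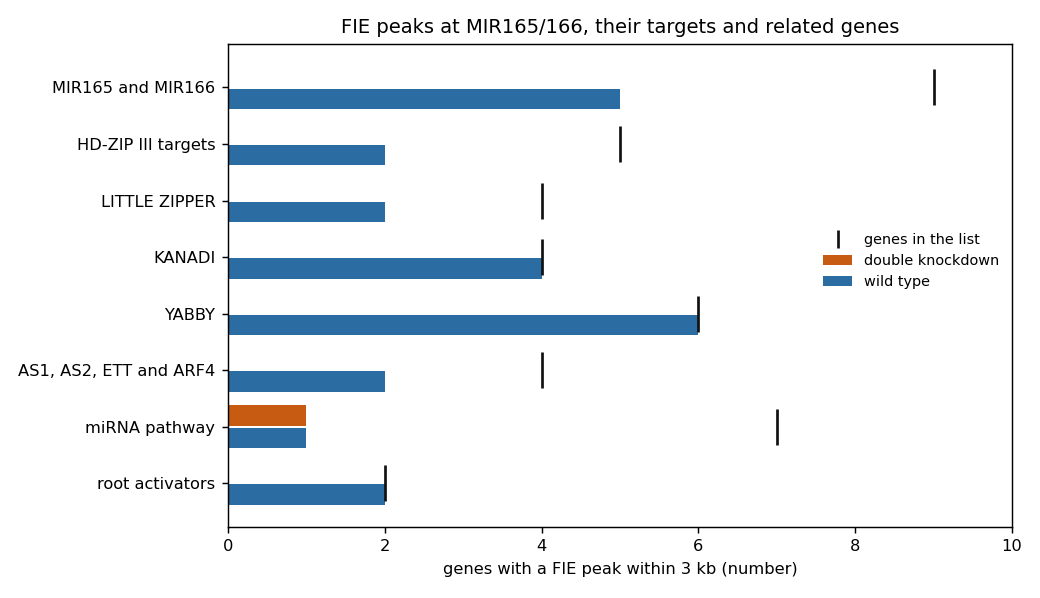
Number of genes (x axis) with a FIE peak within 3 kb in the double knockdown (upper bars) and the wild type (lower bars) for MIR165 and MIR166 and for lists of related genes; vertical ticks give the number of genes in each list. Knockdown bars are at 0 except for 1 gene of the miRNA pathway, and the KANADI and YABBY lists are marked in full in the wild type.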

How the data were processed

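The authors deposited 1 peak list in the narrowPeak layout for each anti-FIE group. Tools named in the submitters' processing notes are MACS2 2.1.0.20151222, Bowtie2 and bedtools, with TAIR10 as the build and no roles given. How replicates and input were combined is not stated there. The first list is named for the wild type, and the second was taken as the double knockdown, the one anti-FIE group left. Each deposited row holds a score, a fold enrichment ratio, a −log10 p and a −log10 q per peak, all from the authors' peak caller. In 100% of peaks the deposited score was the −log10 q multiplied by 10 and rounded down.

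Genes came from a RefSeq table of TAIR10.1, whose nuclear chromosomes were taken to be those of TAIR10. All 9 genes matched by locus. The table gives neither strand nor exons. A peak counted with at least 1 bp of overlap. Pileup and background were recovered from fold and −log10 p under a Poisson model with a pseudocount of 1 (largest misfit 7.27e-04 on the −log10 p scale), after a test on simulated data. The depth ratio is the median ratio of backgrounds at 874 summit pairs within 30 bp (interquartile range 0.467 to 0.475). Passing was expected where a scaled wild-type pileup reached the lowest −log10 p of the knockdown list, 12.4. Python 3.11.15, pandas 2.3.3 and SciPy 1.17.1 were used. Genes, gene lists and the rule for named genes (all 9 genes and their peaks, listed genes with peaks, the 5 other MIR genes of highest wild-type fold and the 3 most alike in covered length) were chosen with earlier results of these data known. No hypothesis test was made. Promoter motifs were not analysed here, and the input libraries were not analysed on their own.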

Additional observations from a re-analysis of the deposited data

How the results depend on the processing

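With a flank of 5 kb, 1 of the 9 genes, MIR166f, had a knockdown peak, against 0 with 3 kb. The knockdown count was 0 under the other 5 alternatives: the gene body alone, a flank of 1 kb, a −log10 q of at least 20, the summit inside the window, and at least 100 bp of the peak inside it. These 5 rules can only drop peaks from the 3 kb count, so a count of 0 could not change under them. The number of genes with a wild-type peak, and with one and no knockdown peak, was 5 under all 6. Under the limit of 20 on −log10 q, MIR166e stayed in by a narrow margin, with a value of 20.1. The number of genes expected to pass, with or without the demand for no knockdown peak, was 4 under 7 of 8 alternatives. It was 5 with no depth filter. The 7 include the ratio of the lowest backgrounds, which was 0.471, like the main ratio, and so could hardly change the number. Each of the 5 genes has a wild-type peak over its whole body. Narrower windows and the summit and overlap rules therefore could not change these numbers either. No paired analysis was possible because there was 1 list per group with no values per replicate, and for the same reason no replicate could be left out. The planned promoter motif description was not run. There was no knockdown input, and weak occupancy below the limit of the lists was not detectable.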
